A study of Caenorhabditis elegans with 2 samples.

Results

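The CEBP-2 ChIP-seq peaks at snoRNA genes were the ranked peaks that shared 1 bp or more with a gene annotated as snoRNA and none with a tRNA gene, and 244 of 112494 ranked peaks qualified. Of these, 58 (23.8%, Wilson 95% interval 18.9 to 29.5%) were also in the thresholded list of both replicates and are called listed peaks here, against 1.26% of all ranked peaks. No peak at a snoRNA gene had to be left out for a tRNA gene. The 244 peaks covered 227 of the 346 annotated snoRNA genes, with 59 genes under a listed peak, 168 under ranked peaks alone and 119 under none. A Wilson interval covers the counting of regions only, and peaks of 1 list share their libraries, so shares are set side by side with no test.

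Chromatin came from whole young adults, 64 h old, of the Caenorhabditis elegans strain OP331, grown from larvae that had hatched after bleaching and been starved at the L1 stage. The strain carries wgIs331, a C48E7.11::TY1 EGFP 3xFLAG transgene that makes tagged CEBP-2, with unc-119(+) in an unc-119(ed3) background, and an antibody against GFP was used. The study has 1 group of 2 biological replicates, with chromatin sonicated to 200 to 800 bp, and the control experiment that the labels name was not analysed here. A peak thus shows where the tagged protein of a transgene was recovered from all tissues together, the tissue it came from cannot be told, and the sequencing depth is unknown because the files hold no read counts.

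CEBP-2 is a basic leucine zipper transcription factor of the C/EBP family. Small nucleolar RNAs guide the chemical modification of ribosomal and spliceosomal RNAs: box C/D snoRNAs direct ribose methylation by fibrillarin, and H/ACA snoRNAs direct pseudouridylation by dyskerin. Their genes can lie inside introns of protein-coding host genes, from which many animal snoRNAs are released after splicing, or stand apart with promoters of their own. Box A and box B are the promoter elements inside tRNA genes that the RNA polymerase III factor TFIIIC binds.

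Upstream of many listed snoRNA genes lay a pair of short sequences that read like box A and box B of a tRNA gene. The following 4 genes are shown because they carry the pair, in 3 settings: T03F7.8 and C04G6.12 lie in introns on the strand opposite to the host, Y43F8C.22 lies in an intron on its host's strand, and C41C4.11 is free-standing. Each line holds 100 bases before the gene's 5′ end and the first 25 bases of the gene, read 5′ to 3′ on the gene's strand from the RefSeq genome, build WBcel235 (ce11). Capitals mark matches to the box A consensus and to GTTCNANNC, a short form of box B. The box A consensus was searched here as TRGYNNARNGG or TRGYNNARNNGG, with R for A or G, Y for C or T and N for any base.
T03F7.8, chrV:11314158-11314282, plus strand: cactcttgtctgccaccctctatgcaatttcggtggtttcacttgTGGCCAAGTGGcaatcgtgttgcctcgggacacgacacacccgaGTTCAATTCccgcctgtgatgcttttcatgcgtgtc
C04G6.12, chrII:5105207-5105331, minus strand: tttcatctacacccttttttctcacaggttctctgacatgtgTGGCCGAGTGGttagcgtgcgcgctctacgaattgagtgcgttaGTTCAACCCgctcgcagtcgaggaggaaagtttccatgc
Y43F8C.22, chrV:19643163-19643287, minus strand: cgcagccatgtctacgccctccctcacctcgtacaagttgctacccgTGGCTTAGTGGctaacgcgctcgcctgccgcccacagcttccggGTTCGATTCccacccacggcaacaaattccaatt
C41C4.11, chrII:8107246-8107370, minus strand: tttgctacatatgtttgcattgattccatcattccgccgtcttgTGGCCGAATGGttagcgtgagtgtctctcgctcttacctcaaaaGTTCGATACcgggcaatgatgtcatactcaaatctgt

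The 3 peaks of highest signal value lay at the following 4 genes, shown next for that reason, and only C51F7.3 of these carries the pair. ZK994.7 lies in an intron of pxn-1, C51F7.4 and C51F7.3 lie in tandem in frm-7 under 1 peak, and Y67A10A.14 is free-standing. Capitals mark the same 2 sequences and also GGAACCCG and TGTCGG, which were picked after such windows had been read. The box A match shown in C51F7.4 runs past the first 15 bp of the gene, where the search for the counts below ended, and is not counted.
ZK994.7, chrV:8500479-8500603, plus strand: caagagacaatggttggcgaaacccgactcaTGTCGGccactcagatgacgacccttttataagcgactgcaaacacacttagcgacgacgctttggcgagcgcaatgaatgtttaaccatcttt
C51F7.4, chrV:12303499-12303623, plus strand: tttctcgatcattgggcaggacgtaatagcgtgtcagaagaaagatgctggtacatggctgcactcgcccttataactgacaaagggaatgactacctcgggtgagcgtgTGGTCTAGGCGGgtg
C51F7.3, chrV:12303608-12303732, plus strand: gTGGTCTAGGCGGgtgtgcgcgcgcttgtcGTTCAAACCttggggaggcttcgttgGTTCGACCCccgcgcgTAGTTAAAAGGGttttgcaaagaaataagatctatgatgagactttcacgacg
Y67A10A.14, chrIV:14327097-14327221, minus strand: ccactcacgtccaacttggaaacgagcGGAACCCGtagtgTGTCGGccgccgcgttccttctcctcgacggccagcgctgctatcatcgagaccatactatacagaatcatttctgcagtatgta

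B0334.12 is shown by the window of 50 bp to either side of its summit, since the pair lay there, past the 3′ end of the snoRNA gene and on the strand of its host twk-5.
B0334.12, chrII:11484744-11484844, minus strand: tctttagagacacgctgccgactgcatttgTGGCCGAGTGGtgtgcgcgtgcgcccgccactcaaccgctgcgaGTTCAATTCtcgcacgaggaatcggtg

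For comparison, 2 genes under peaks outside the thresholded list are shown in the 5′ end frame used for all genes above but B0334.12. D2021.6 had one of the 3 highest signal values outside the list, and R151.12 had the highest among snoRNA genes in ribosomal protein and translation factor hosts. No capital appears in either window. Neither window holds the peak's summit, which lay at 25 bp from the 5′ end of D2021.6 and at -130 bp from that of R151.12. The 2 windows thus do not show the sequence at those summits, and they do not stand for all peaks outside the list. K11C4.6, another of those 3, has the box A consensus at its 5′ end. Box A or GTTCNANNC was at the gene of 15 of 186 peaks outside the list (8.06%). R151.12 comes from a group of hosts in which no snoRNA gene had either sequence there.
D2021.6, chrX:8546180-8546304, minus strand: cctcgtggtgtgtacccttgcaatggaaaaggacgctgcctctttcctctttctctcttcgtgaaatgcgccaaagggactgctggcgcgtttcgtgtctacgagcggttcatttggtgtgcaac
R151.12, chrIII:7208919-7209043, plus strand: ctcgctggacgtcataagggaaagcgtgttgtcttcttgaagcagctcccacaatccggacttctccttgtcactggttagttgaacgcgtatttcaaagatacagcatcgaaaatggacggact

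Some signal values at snoRNA genes were among the highest of the study's lists. The highest of them, at ZK994.7, led the joint thresholded list and was number 11 among all ranked peaks, and the highest in replicate 1 was 136.5, against 155.6 in its whole thresholded list. The signal value is the authors' peak caller's, and its normalization is not stated, so it is compared only within a list. The 58 listed peaks had a median signal value of 114, against 77.0 over all 1419 listed peaks. The 244 snoRNA peaks had a median of 37.4, against 23.4 over all 112494 ranked peaks, and their median percentile by signal was 81.5. They were unevenly spread: 50 were in the top 1% of ranked peaks and 100 in the top 10%, whereas 62 lay below the median of all ranked peaks. Among the 100 listed peaks of highest signal, 20 were at snoRNA genes. Peaks at tRNA genes had a share of 32.3% listed (161 of 499) and a median signal of 55.1, and peaks at snRNA genes 22.4% (19 of 85) and 39.2. Both intervals, 28.3 to 36.5% at tRNA genes and 14.8 to 32.3% at snRNA genes, overlapped that of the snoRNA peaks.

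Each replicate's own lists held the snoRNA peaks at a share far above their background. In replicate 1, 32 of 202 ranked peaks at snoRNA genes (15.8%, 11.5 to 21.5%) were in its thresholded list, against 0.484% of all its ranked peaks. In replicate 2 the count was 40 of 185 (21.6%, 16.3 to 28.1%), against 0.549%. The conservative list of both replicates held 50 of 235 (21.3%, 16.5 to 26.9%), against 1.04%. At tRNA genes it held 156 of 493 (31.6%, 27.7 to 35.9%), an interval above that of the snoRNA peaks, and at snRNA genes 17 of 82 (20.7%, 13.4 to 30.7%). The order of the RNA classes differed between the joint and the single lists. In replicate 1 the thresholded share was 6.17% at tRNA genes (25 of 405) and 4.84% at snRNA genes (3 of 62), and in replicate 2 it was 16.1% (71 of 441) and 14.1% (9 of 64). The snoRNA peaks thus had the highest share of the 3 classes in each single replicate, with an interval clear of that of tRNA genes in replicate 1 alone, while tRNA genes led in both joint lists. The joint lists were made from the same libraries, so the single lists are not independent of them.

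All 58 listed peaks overlapped a ranked peak of replicate 2, and 57 overlapped one of replicate 1. Their signal values in replicate 1 had a lowest value of 22.0, a median of 46.4 and a highest value of 136.5. In replicate 2 the same 3 values were 28.46, 73.4 and 256.3. Listed peaks stood near the top of both lists, at a median percentile of 99.5 in replicate 1 and 99.7 in replicate 2. Of the 186 peaks outside the list, 126 had a ranked peak in replicate 1, 129 in replicate 2, 88 in both and 19 in neither, at median percentiles of 69.8 and 69.9. Across the 57 listed peaks with both values, Spearman's rho between the replicates was 0.640, and across the 88 others it was 0.157. These coefficients describe peaks that share 2 libraries. The joint list was made from the same libraries, so the split into listed and other peaks is not independent of the values. Which lists were compared to make the joint list could not be told, so a listed peak need not be high in both replicates. The scale differed, since 53 of the 57 had the higher value in replicate 2. The stricter single lists divided the 58 into 24 thresholded in both replicates, 17 in replicate 2 alone, 5 in replicate 1 alone and 12 in neither. Neither this division nor the overlap with ranked peaks was counted over all 1419 listed peaks. The counts thus cannot show whether snoRNA peaks differ from other listed peaks.

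**Figure D1:**
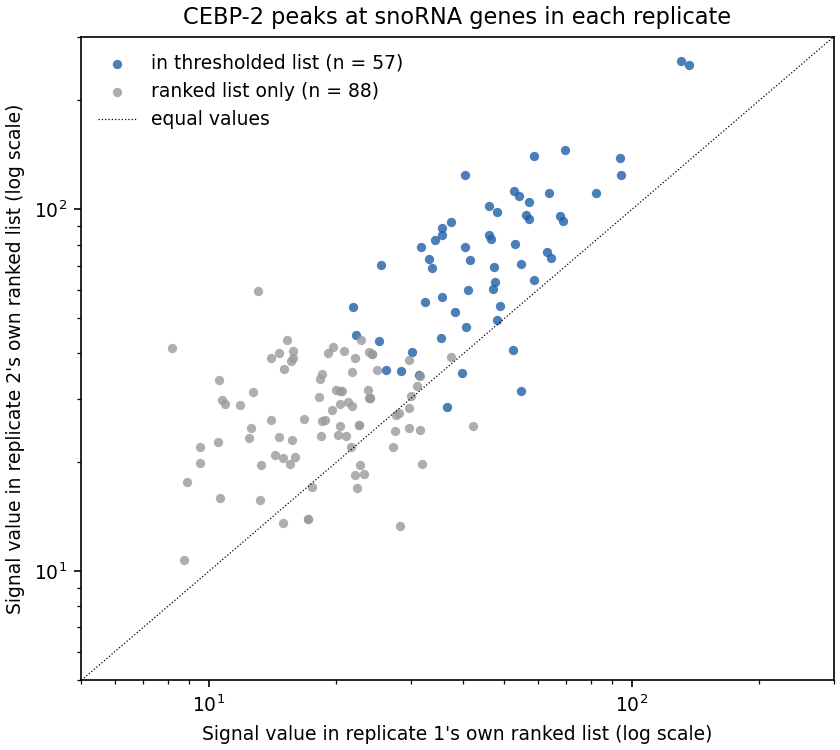
Signal value of each snoRNA peak in the own ranked list of replicate 1 (x axis, log scale) and of replicate 2 (y axis, log scale), for the 57 listed and 88 other peaks that overlapped a ranked peak in both. Points are peaks and the dotted line marks equal values. The listed peaks fill the upper right, with the peaks at ZK994.7 and C51F7.4 farthest out at 130.6 and 136.5 in replicate 1.

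Listed peaks occurred at snoRNA genes of every setting. A gene was called hosted where a protein-coding gene contained it, and free-standing otherwise, which included 6 genes that overlapped a protein-coding gene in part. Of the peaks at intronic genes on the strand opposite to the host, 8 of 24 were listed (33.3%, 18.0 to 53.3%). At free-standing genes 23 of 82 were listed (28.0%, 19.5 to 38.6%), and at intronic genes on the host's strand 24 of 109 (22.0%, 15.3 to 30.7%). Genes that overlapped an exon of the host had the lowest share, 3 of 29 (10.3%, 3.58 to 26.4%). The intervals of all 4 settings overlapped, so the order among neighbours is within counting error. The median signal values followed the same order, at 50.4, 42.4, 34.7 and 30.4. All hosted genes together gave 35 of 162 peaks (21.6%, 16.0 to 28.6%), against 28.0% for the free-standing ones. Counted over all annotated genes, with or without a ranked peak, the share under a listed peak was 8 of 27 (29.6%) for intronic genes on the opposite strand, 25 of 143 (17.5%) on the host's strand and 3 of 46 (6.52%) for exon-overlapping genes, against 23 of 130 (17.7%) for free-standing ones. The order of the first 3 settings also held in each single replicate, at 22.2%, 17.7% and 14.1% in replicate 1 and 27.3%, 26.2% and 19.5% in replicate 2.

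**Figure D2:**
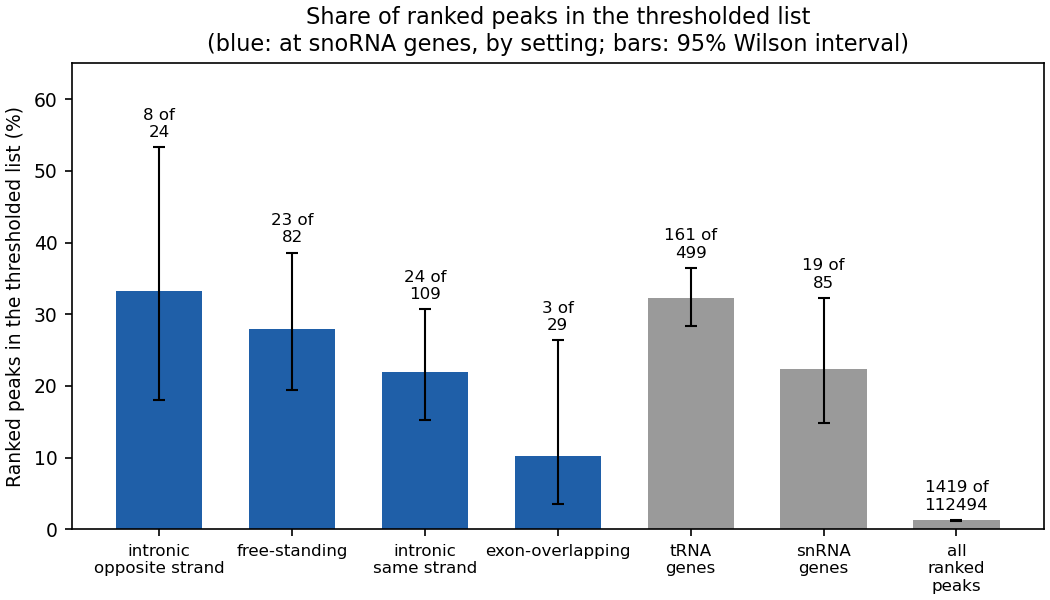
Share of ranked peaks that were in the thresholded list of both replicates (y axis, percent), for snoRNA peaks by the setting of their gene (blue) and for peaks at tRNA genes, at snRNA genes and all ranked peaks (grey). Bars give the share and lines its Wilson 95% interval. All 4 blue bars stand above the 1.26% of all ranked peaks, and their intervals overlap each other.

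Among intronic genes on the host's strand, ZK994.7 came first of all snoRNA genes. Its peak, chrV:8500487-8500657, had a signal value of 390.5, the highest of the whole thresholded list, with 130.6 in replicate 1 and 256.3 in replicate 2. The host pxn-1 encodes a peroxidasin, an extracellular matrix peroxidase. The summit lay at -2, counted in bp from the first base of the snoRNA gene in its direction, with negative values upstream. C27H6.5, in the synaptic vesicle gene unc-41 (chrV:9970190-9970459), had 190.5 in the joint list, 58.6 in replicate 1 and 140.2 in replicate 2, with the summit at -54. C10C6.8, in the cation-transporting ATPase gene catp-8 (chrIV:11474129-11474398), had 167.4, 67.7 and 96.0, with the summit at -73. All 3 stood above the 99.5 percentile of both single lists. F38E11.14, in the cyclic nucleotide-gated channel gene cng-3, had 154.5, 57.0 and 105.0, and T08B2.13, in the phenylalanyl-tRNA synthetase gene fars-1, had 153.4, 56.4 and 96.7. All 5 were thresholded in both single replicates.

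On the strand opposite to the host, the 8 listed genes lay in 8 different hosts. T03F7.8, in the cuticlin-like gene cutl-18 (chrV:11314085-11314354), had 212.4 in the joint list, 94.1 in replicate 1 and 124.5 in replicate 2, with the summit at -38. B0334.12, in the potassium channel gene twk-5 (chrII:11484659-11484928), had 167.7, 63.7 and 111.0, and its summit lay at 111, past the gene's 3′ end. T04A8.17, in ppat-1 (chrIII:4689696-4689965), had 159.0, 54.1 and 109.1, with the summit at -60. In each of them replicate 2 had the higher value. C27H5.9 in pdl-1 had 151.4, 57.2 and 93.8, and C04G6.12 in the MAP kinase gene mpk-2 had 139.8, 47.9 and 98.1. The remaining 3 were lower, and none of them was thresholded in replicate 1. Y6B3B.15, in the ceramide synthase gene lagr-1, had 98.5, 35.6 and 57.2, ZK484.9, in the ABC transporter gene haf-9, had 90.2, 25.5 and 70.0, and Y41E3.464, in fcd-2, the homologue of a Fanconi anaemia gene, had 63.7, 28.52 and 35.8.

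Free-standing genes took many of the first 20 places by signal. Y67A10A.14 (chrIV:14326970-14327239) had 229.3 in the joint list, 93.7 in replicate 1 and 138.3 in replicate 2, with the summit at 16, inside the gene. F59C6.15 on chromosome I had 141.8, 64.4 and 73.6. These 2 genes are at least 95% identical over their length, so reads from one could have been placed at the other. They were the only listed genes with such a copy among the 346. Y23H5B.10 had 211.7, 69.4 and 146.1, and W01C9.6 had 189.1, 82.1 and 111.1. ZK265.10 had 164.9, 40.4 and 124.7. Its peak was thresholded in replicate 2 alone. Y75B12B.12 had 164.1, 52.7 and 112.5, T06C12.16 had 162.1, 68.8 and 93.0, and T02E1.9 had 155.7, 46.0 and 102.1. The last of the first 20, C53B7.8 with 137.5, 63.0 and 76.4, was the only listed one of 22 snoRNA peaks on chromosome X, where 33 of the snoRNA genes lie. Chromosome III had 3 listed of 32 snoRNA peaks, and each of the other chromosomes had 13 or 14 listed. All ranked and all listed peaks were not counted by chromosome, so these counts show no lack on a chromosome.

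The exon-overlapping gene C51F7.4 and its neighbour C51F7.3 shared the peak of second highest signal, chrV:12303546-12303726, with 377.8 in the joint list, 136.5 in replicate 1 and 251.1 in replicate 2. Both lie in frm-7, which encodes a protein with a FERM domain, and frm-7 was the only host with more than 1 snoRNA gene under listed peaks. The summit lay at 57 from the 5′ end of C51F7.4 and at -52 from that of C51F7.3, so that the window shown above for C51F7.3 holds it. In all, 36 listed snoRNA genes lay in 35 hosts. Of the 58 listed peaks, 23 were in all 4 thresholded lists, a count that was not made over all listed peaks. They included all of the first 20 but ZK265.10, T02E1.9 and C04G6.12, which missed the list of replicate 1. The others were F55A11.10 and Y43F8C.22 with 133.4 each, C14C10.8 with 130.5, W08G11.6 with 111.7, ZK546.18 with 111.3 and Y53F4B.48 with 108.8.

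No snoRNA gene in a host named as a ribosomal protein or translation factor gene was under a listed peak. Such housekeeping genes are the classic hosts of animal snoRNAs. Hosts were taken by the start of their name (rpl-, rps-, rla-, eef-, eif-, ife- or ifg-), and 23 snoRNA genes, all on the host's strand, lay in 15 such hosts, among them rpl-6, rpl-7A, rps-12, rps-13 and eef-1G. Of the 23, 0 were listed (Wilson 95% interval up to 14.3%), while 14 had ranked peaks alone and 9 had none. In other hosts 36 of 193 snoRNA genes were listed (18.7%, 13.8 to 24.7%), and the intervals overlapped. The names took in eif-4A3, an exon junction component, and missed iff-2 and ubl-1, the genes of eIF5A and of a ubiquitin-like protein fused to a ribosomal protein. An alternative chosen after seeing the data left eif-4A3 out and took those hosts in. It gave 0 of 24 listed (up to 13.8%), against 36 of 192 in other hosts (18.8%, 13.9 to 24.9%). These 2 intervals lay side by side without overlap, so the overlap above depends on the choice of hosts. The 19 ranked peaks at the 23 genes had signal values from 7.79 to 55.5 with a median of 22.7, near the median of 23.4 over all ranked peaks and below that of 37.3 in other hosts. None of the 23 had box A or GTTCNANNC at its 5′ end, against 39 of the 193 genes in other hosts.

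The proteins of the snoRNP particles themselves had no listed peak at their promoters. Promoters were taken as 1000 bp before and 200 bp after the gene's 5′ end. Of the 8 genes sought, 7 were matched in the annotation, and 0 of the 7 had a listed peak, against 2.36% of 19973 protein-coding genes. All 7 had a ranked peak, as did 76.6% of protein-coding genes. The highest signal values were 28.0 at fib-1 (fibrillarin), 52.6 at nol-56, 48.8 at nol-58 and 14.8 at snu-13, which belong to the C/D particle. In the H/ACA particle they were 25.0 at dkc-1 (dyskerin), 37.9 at Y48A6B.3 and 29.8 at nola-3. With 7 genes the count of 0 could not show a difference from the background.

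By a simple rule on the gene's own sequence, 44 snoRNA genes read as C/D and 56 as H/ACA, and 246 could not be assigned. The rule asked for a C box and a D box near the ends, or for ACA 3 bases before the 3′ end in a gene of at least 100 bp. Of the C/D-like genes 15 were listed (34.1%, 21.9 to 48.9%), and of the H/ACA-like genes 14 (25.0%, 15.5 to 37.7%). Of the unassigned genes 30 were listed (12.2%, 8.68 to 16.9%). The intervals of the 2 named kinds overlapped, and the rule leaves most genes without a kind.

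The summits of listed peaks gathered just upstream of the snoRNA genes. The median summit lay at -25 bp, and 42 of 58 (72.4%, 59.8 to 82.2%) fell within 100 bp upstream of the 5′ end. A further 10 lay inside the gene, 3 within 100 bp past its 3′ end and 3 farther upstream. Of the peaks outside the list, 45 of 186 (24.2%, 18.6 to 30.8%) had the summit within 100 bp upstream, 70 had it inside the gene and 38 within 100 bp past the 3′ end, and their median lay at 59.5 bp. The gathering was seen for intronic genes on the host's strand, with 18 of 24 listed peaks (75.0%) against 18 of 85 others (21.2%). Free-standing genes gave much the same shares, 18 of 23 (78.3%) against 16 of 59 (27.1%). For intronic genes on the opposite strand the counts were 5 of 8 listed and 6 of 16 others. In the single thresholded lists the share upstream was 23 of 32 (71.9%, 54.6 to 84.4%) in replicate 1 and 31 of 40 (77.5%, 62.5 to 87.7%) in replicate 2. The summit of a full-width peak of 270 bp is its centre, and 56 of the 58 were of full width.

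**Figure D3:**
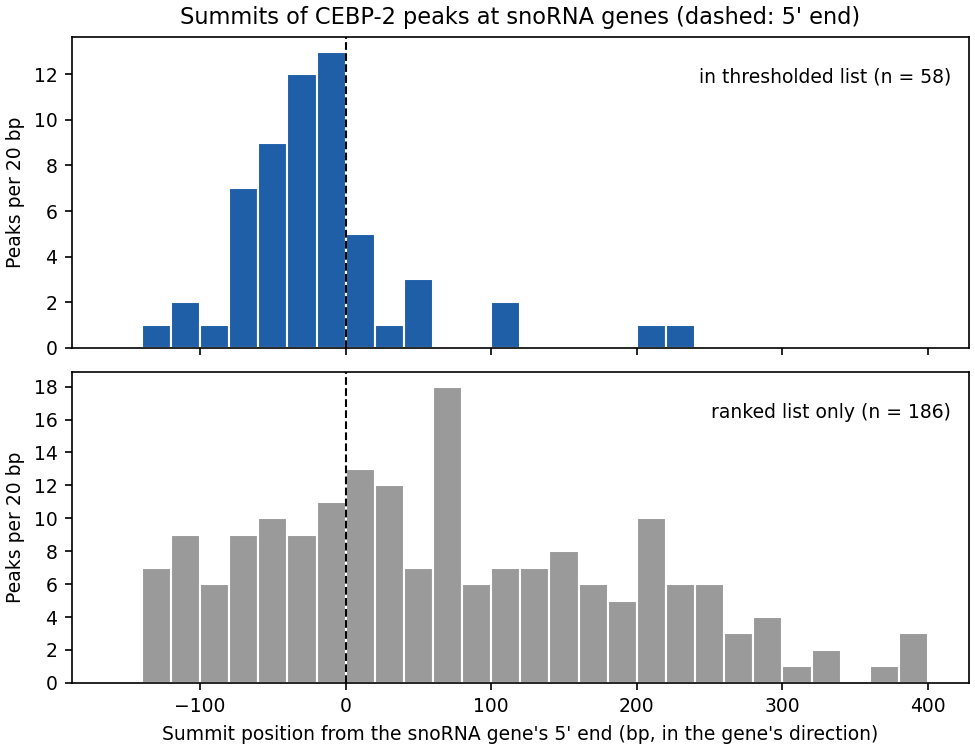
Number of snoRNA peaks (y axis, per 20 bp) by the position of the summit from the 5′ end of the snoRNA gene, in bp in the direction of the gene (x axis, dashed line at the first base), for the 58 listed peaks (top) and the 186 others (bottom). The listed summits gather just left of the line, with a median of -25, while the others spread over the gene and beyond it, with a median of 59.5.

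Sequences like box A and box B were far more frequent at listed genes than at the other snoRNA genes, with intervals that did not overlap. The window searched ran from 110 bp upstream to 15 bp into the gene and was read on the gene's strand. The box A consensus was in the windows of 28 of 59 listed genes (47.5%, 35.3 to 60.0%), 10 of 168 genes with ranked peaks alone (5.95%, 3.27 to 10.6%), 5 of 119 genes with no peak (4.20%) and 138 of 19973 protein-coding genes (0.691%). GTTCNANNC was in 26 of the 59 (44.1%, 32.2 to 56.7%), 6 of the 168 (3.57%), 6 of the 119 (5.04%) and 1.84% of protein-coding genes. Both in order, box A followed by GTTCNANNC, 20 to 90 bp from start to start, was in 18 of the 59 (30.5%, 20.3 to 43.1%), 2 of the 168 (1.19%), 2 of the 119 (1.68%) and 0.0150% of protein-coding genes. Thus 18 of the 22 snoRNA genes with the pair were under a listed peak. A match is a description of letters in a window, and whether TFIIIC or CEBP-2 binds them was not tested.

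The pair was found in hosted and free-standing genes alike. Among intronic genes on the host's strand it was in 8 of 25 listed genes (32.0%) and 0 of 72 with ranked peaks alone, and among free-standing genes in 7 of 23 (30.4%) and 1 of 57 (1.75%). On the strand opposite to the host it was in 3 of 8 listed genes and 1 of 15 others. In the 18 listed genes with the pair, box A started at a median of -58.5 bp, with a range from -99 to -50, and GTTCNANNC at -14 bp, with a range from -70 to -5. Both thus started upstream of the snoRNA. Of the 17 listed peaks with a pair at their gene, 10 had the summit between the start of box A and the end of GTTCNANNC.

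The peaks of genes with the pair were also high in each replicate. The 19 peaks at such genes had a median signal of 116, with 46.0 in replicate 1 and 72.8 in replicate 2, and 17 of them (89.5%, 68.6 to 97.1%) were listed. Peaks at genes with 1 of the sequences or both out of order had medians of 90.2, 38.2 and 54.3, and 18 of 31 were listed (58.1%, 40.8 to 73.6%). Peaks at genes with neither had medians of 32.3, 19.6 and 26.2, and 23 of 194 were listed (11.9%, 8.03 to 17.2%). Each peak was counted at 1 gene, so the last group held the 2 highest peaks, at ZK994.7 and at C51F7.4, although C51F7.3 under the second of them has the pair. In the single lists, the gene had the pair at 10 of 32 thresholded peaks of replicate 1 (31.2%, 18.0 to 48.6%) against 9 of 170 others (5.29%), and at 12 of 40 of replicate 2 (30.0%, 18.1 to 45.4%) against 6 of 145 (4.14%).

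**Figure D4:**
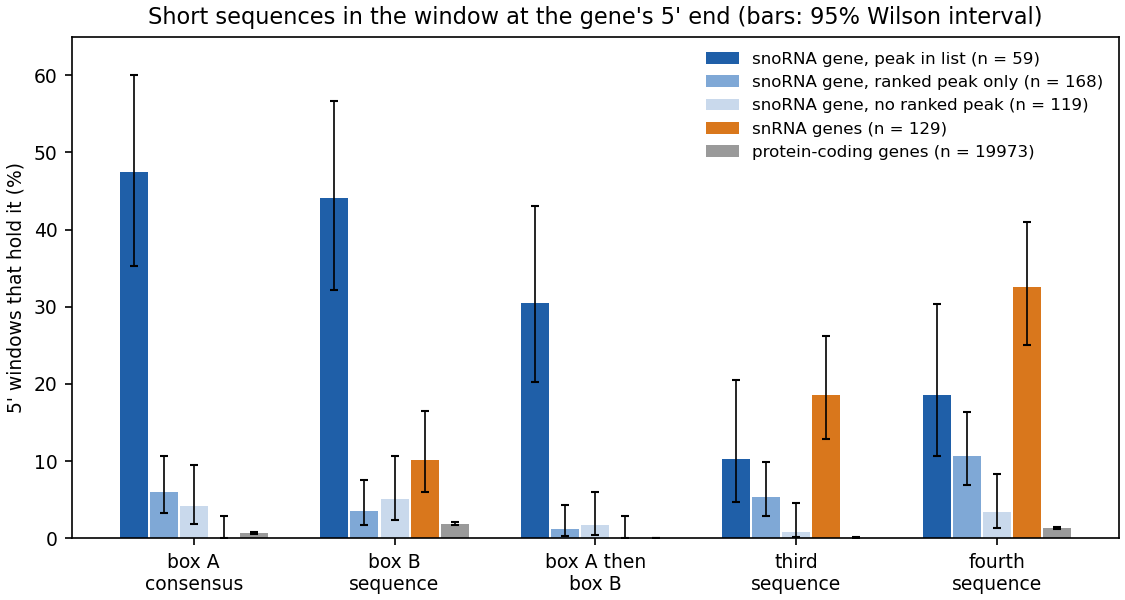
Share of windows at the gene's 5′ end (y axis, percent) that held the box A consensus, the box B sequence GTTCNANNC, both in order, GGAACCCG (the third sequence) and TGTCGG (the fourth), for snoRNA genes under a listed peak, under ranked peaks alone and under none, for snRNA genes and for protein-coding genes. Lines are Wilson 95% intervals. The pair stood in 30.5% of the listed genes and in 0 of 129 snRNA genes, whereas the third and the fourth sequence were most frequent at snRNA genes.

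A smaller number of listed genes held GGAACCCG or TGTCGG instead. GGAACCCG was in 6 of 59 listed genes (10.2%, 4.74 to 20.5%), 9 of 168 with ranked peaks alone (5.36%, 2.84 to 9.87%), 1 of 119 with none (0.840%) and 0.0501% of protein-coding genes. TGTCGG was in 11 (18.6%, 10.7 to 30.4%), 18 (10.7%, 6.89 to 16.3%), 4 (3.36%) and 1.33%. The intervals of listed genes and of genes with ranked peaks alone overlapped for both sequences, unlike those for the boxes. The counts of TGTCGG were also split by setting. On the host's strand it was in 7 of 25 listed intronic genes (14.3 to 47.6%) and 2 of 72 with ranked peaks alone (0.765 to 9.57%). On the opposite strand the counts were 0 of 8 and 5 of 15, and at free-standing genes 4 of 23 and 11 of 57. The intervals of the listed genes in the last 2 settings, 0 to 32.4% and 6.98 to 37.1%, overlapped that on the host's strand. Both sequences were frequent at snRNA genes, with GGAACCCG in 24 of 129 (18.6%) and TGTCGG in 42 (32.6%). At listed genes GGAACCCG started at a median of -71 bp and TGTCGG at -50 bp. Since these 2 sequences were picked from windows of listed genes, their counts there are a description of how they were chosen. Any of the 4 sequences was in 48 of 59 listed genes (81.4%, 69.6 to 89.3%), 35 of 168 (20.8%), 12 of 119 (10.1%) and 3.82% of protein-coding genes. That choice also raises the share of 81.4%, so the 4 together do not give a fair contrast between these groups. Without GGAACCCG and TGTCGG, box A or GTTCNANNC was in 36 of 59 (61.0%), 14 of 168 (8.33%) and 9 of 119 (7.56%).

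**Figure D5:**
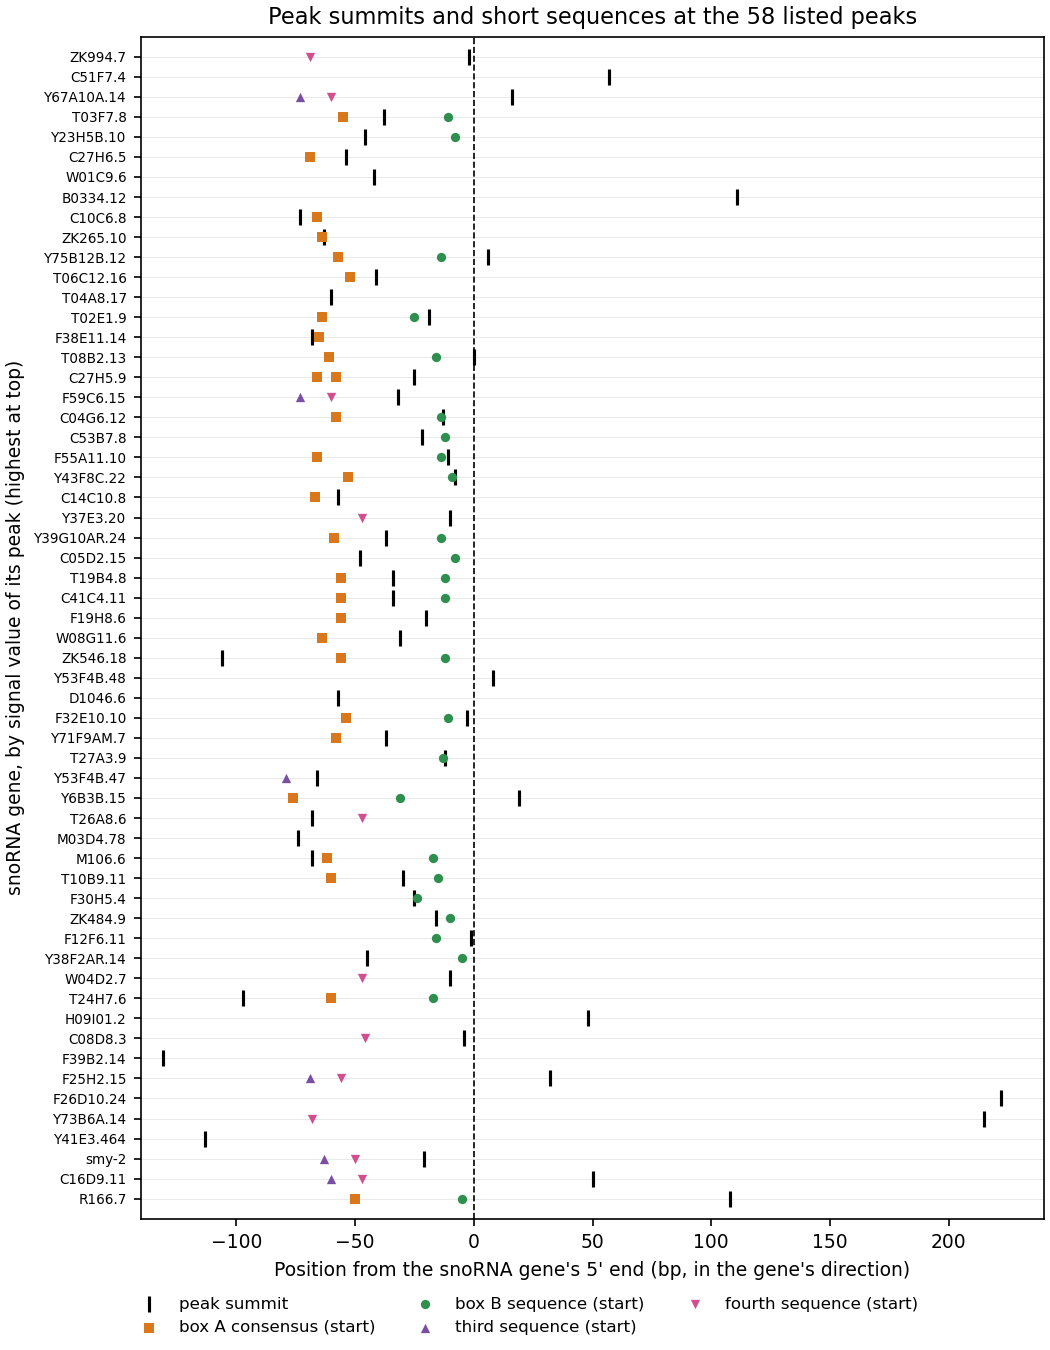
Positions of the peak summit (black bar) and of the start of each match to the 4 sequences (coloured marks), in bp from the 5′ end of the snoRNA gene in its direction (x axis), for the 58 listed peaks ordered by signal value (y axis, highest at the top). In the 18 listed genes with the pair, box A started at a median of -58.5 and box B at -14. Matches to 1 box alone are marked too. Of the 17 listed peaks at a gene with the pair, 10 had the summit between the boxes, and 23 peaks were at genes with neither box in the 5′ window. Each peak is drawn at 1 gene, so the pair of C51F7.3, under the peak drawn at C51F7.4, is not shown. The 23 include that peak and the one at B0334.12, with the pair near its summit on the other strand.

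Around the summits themselves, 50 bp to either side and on both strands, the same sequences were seen. The box A consensus was in 23 of 58 listed windows (39.7%), 9 of 186 others (4.84%) and 3.18% of all ranked peaks, against 55.7% of ranked peaks at tRNA genes. Among listed peaks it was in 67.7% at tRNA genes and 15.6% over all. At listed peaks with no tRNA, snoRNA or snRNA gene it was in 7.54%. GTTCNANNC was in 24 of 58 (41.4%), 8 of 186 (4.30%) and 4.15% of all ranked peaks, against 49.5% of ranked peaks at tRNA genes. In the same 3 sets of listed peaks GTTCNANNC was in 54.0%, 12.8% and 6.01%. AGTGGTTA, which can overlap the end of a box A match, was in 5 of 58 (8.62%) and 0 of 186, against 0.277% of all ranked peaks and 3.45% of all listed peaks. The C/EBP palindrome TTGCGCAA was in 0 of 244 windows, which allows a share of up to 1.23%, against 0.188% of all ranked peaks. Its looser form TTGCNNAA, which any TTGCGCAA also matches, was in 12 of 244 (4.92%, 2.84 to 8.40%), 2 of them listed, against 10.8% of all ranked peaks. Over all listed peaks TTGCNNAA was in 7.96%, and its share in the 58 listed windows was 3.45% (0.951 to 11.7%). Runs of 8 T were in 9 of 244 (3.69%), against 8.76%. Base composition moved with these counts, and its part in them was not tested: the median GC content was 54.5% in the listed windows, 44.6% in the others and 39.6% over all ranked peaks, with 48.5% at tRNA genes. All listed peaks together had a median of 48.5%, and those at no tRNA, snoRNA or snRNA gene 47.5%.

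The members at the limits of the rule and of the list were the following. The 3 listed peaks of lowest signal were at smy-2 in C33A12.3 with 62.5, C16D9.11 in rol-3 with 59.9 and R166.7 in mnk-1 with 26.6. R166.7 stood at only the 58.9 percentile of all ranked peaks, and it had 36.6 in replicate 1 and 28.46 in replicate 2. Its value in replicate 1 came from a peak that shared less than 0.5 of the joint peak's width. At smy-2 the value was 55.0 in replicate 2, and there was no peak in replicate 1. Outside the list the highest were F58D5.11 with 75.7, D2021.6 with 69.5 and K11C4.6 with 67.1. Signal values of the 2 sides overlapped. The lowest score in the thresholded list was 830, and all 58 snoRNA peaks at or above it were listed. Over all ranked peaks 1535 had such a score and 1419 were listed, so the score alone did not place a peak in the list. The score was 1000, the ceiling, at C16D9.11, 924 at smy-2 and 831 at R166.7, against 754 at F58D5.11, 718 at D2021.6 and 614 at K11C4.6. The smallest overlaps with a gene, 1 bp each, were at F53G12.12 with 7.79 and Y43F4B.11 with 47.8, and the nearest peaks outside lay 1 bp from Y59E1B.14 with 11.2 and 4 bp from F32B5.17 with 26.6. None of these 4 was listed.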

How the data were processed

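Peaks of 2 biological replicates, labelled as 1 group, were on ce11, per the names and accompanying notes of the deposited files. Which aligner and peak caller made them, and with what settings, is not given in the sources used here. Deposited were the authors' ranked and thresholded peak lists (irreproducible discovery rate, IDR) for both replicates together, with a conservative version, and for each replicate. The deposited signal value is the peak caller's own, with normalization not stated, and the deposited score has a ceiling of 1000. A further column of the authors' ranked lists, the −log10 of a global IDR, was not used. No table holds read counts, so the depth is unknown and intervals cover the counting of regions only.

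Ranked peaks were joined to Ensembl release 115 genes (WBcel235, the same assembly as ce11) by 1 bp or more, and sequences were read from the RefSeq WBcel235 genome. A snoRNA gene's host is a protein-coding gene whose span contains it, and a peak over 2 snoRNA genes was given to the one with the larger overlap. Signals per replicate are those of the highest overlapping peak in that replicate's own ranked list. The 8 paired signal columns of the ranked lists were not used, since they could not be matched to a sample. Python 3.11.15, pandas 2.3.3, numpy 2.4.6 and scipy 1.17.1 were used, and the overlap, position and sequence functions were tested on simulated data. No hypothesis was tested. Shares have Wilson 95% intervals, and a count of 0 allows 3 counts. Alternatives were other lists, overlap rules, host names, window widths and single replicates.

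Genes named with values are the first 20 listed peaks by signal, other listed peaks opposite to their host, hosts with 2 or more listed snoRNA genes, peaks in all 4 thresholded lists, and those nearest the limits of the rule and of the list. The members and lists were chosen with earlier results of these data known.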

Additional observations from a re-analysis of the deposited data

How the results depend on the processing

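The count of listed snoRNA peaks, 58, was 50 in the conservative list, 46 at the score ceiling, 50 where at least 0.5 of the gene was covered, and 58 with overlapping peaks merged or tRNA gene peaks kept. It was 10 where the summit had to lie inside the gene, and 32 to 40 in the lists of single replicates. Without one replicate, the listed share was 14.1 to 19.5% at intronic genes on the host's strand, 22.2 to 27.3% on the opposite strand, 9.52 to 11.1% at exon-overlapping genes, 17.7 to 26.2% at free-standing genes and 14.6 to 19.2% at hosted genes. The lower counts in single replicates were not traced to a cause, and the cause was not tested. Of all 244 summits, 35.7% lay within 100 bp upstream, against 72.4% of the listed ones and 38.1 to 47.6% without one replicate.

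At 100 bp to either side of all 244 summits, box A was in 18.9%, TTGCNNAA in 11.9% and TTTTTTTT in 8.61%, against 5.99%, 20.5% and 17.5% of all ranked peaks. At 50 bp around listed summits, box A was in 39.7%, GTTCNANNC in 41.4%, AGTGGTTA in 8.62% and TTTTTTTT in 1.72%. Over all listed peaks the 4 shares were 15.6%, 12.8%, 3.45% and 3.81%. For the box pair at listed genes (30.5%), alternatives chosen after seeing the data gave 61.0% with either sequence and 1.69% in a window of 110 bp to either side of the 3′ end. That window held GTTCNANNC at 16 of 59 listed genes (27.1%), at 15 of them as matches inside the 5′ window too, since the windows overlap, against 8 of 168 genes with ranked peaks alone (4.76%). The count with ranked peaks in both replicates, 145, was 129 when 0.5 of the width had to be shared, and the count thresholded in both stayed 24. No paired analysis was possible because the series has 1 group. Unknown depth limits every statement on a gene with no peak.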
